A study of Homo sapiens with 18 samples.

Results

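RNA-seq gene counts were compared between MDA-MB-231 cells kept with docosahexaenoic acid (DHA) and the same cells kept with vehicle, both carrying a short hairpin RNA against luciferase (sh-LUC). The libraries were chosen by their labels alone and are 6 of the 18 of the study, 3 with DHA and 3 with vehicle. MDA-MB-231 is an established triple-negative human breast cancer line of mesenchymal character, and sh-LUC cells, labelled WT, are the control of a line in which a hairpin lowers IGFBP6 (sh-IGFBP6). Cells of every group were plated at 800000 per well, and after 24 h the medium was replaced for a further 24 h. The control group received 0.5% DMSO and 0.5% ethanol, the DHA group 200 µM DHA in ethanol together with 0.5% DMSO, and a further sh-LUC group, used here for comparison, 2.5 µM erastin in DMSO with 0.5% ethanol. No group was left without solvent, and a single dose and a single time were measured. The labels do not say whether the sh-LUC line is a clone or a pool. Nor do they state that replicates were separate cultures, and the p-values therefore cover only the variation among these samples, part or all of which may be technical.

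Control libraries held 2708143, 3224979 and 4043424 gene counts and DHA libraries 5666029, 7937608 and 6859773, so that every DHA library was deeper than every control library. Levels are given as CPM, counts scaled to the TMM effective library size. The first principal component of the 6 libraries took 40.8% of the variance and separated the groups (-22.6 to -19.3 for vehicle and 20.3 to 22.1 for DHA). The second, at 21.4%, set control library 1 at 30.4 apart from the other 2 control libraries at -20.2 and -10.9. Markers of basal B breast cancer lines summed to between 6049.9 and 6272.5 CPM with vehicle and between 5984.2 and 6229.0 CPM with DHA, while 17 leukocyte markers summed to at most 10.5 CPM and 6 of them had no count in any of the 6 libraries. IGFBP6 stood at 20.8, 20.02 and 17.2 CPM with vehicle and 12.2, 14.2 and 15.1 CPM with DHA, and the 3 sh-IGFBP6 libraries with vehicle lay between 0.599 and 2.20 CPM.

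DHA is a long-chain omega-3 polyunsaturated fatty acid. Inside cells such fatty acids are built into phospholipids and triglycerides, are ligands of the peroxisome proliferator-activated receptors (PPARs), which switch on genes of fatty acid oxidation and storage, and restrain the sterol regulatory element-binding proteins (SREBPs), which drive genes of cholesterol and fatty acid synthesis. Their many double bonds are prone to peroxidation, the chemistry behind ferroptosis, and cells answer to oxidised lipids through NRF2, the master regulator of antioxidant genes, and to shortage of amino acids or protein stress through ATF4, the effector of the integrated stress response.

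At 24 h DHA had raised most tested genes of the antioxidant and integrated stress responses and some genes of fatty acid use and storage, and had lowered most tested genes of sterol and fatty acid synthesis and of the response to bone morphogenetic proteins. Of 15189 genes tested, 2546 (16.8%) passed edgeR's quasi-likelihood test at an adjusted p below 0.05, 1084 (7.14%) higher and 1462 (9.63%) lower with DHA. Most changes were small: the median fold among the calls was 1.30 for genes that rose and 1.35 for genes that fell. At least 2-fold higher were 101 genes and at least 2-fold lower 179, and 19 and 12 passed 4-fold. In 1009 of the genes that rose and 1369 of those that fell the 3 DHA libraries did not overlap the 3 control libraries, against 14.5% of all tested genes whose DHA libraries were all higher and 15.6% whose DHA libraries were all lower. The share of genes called was 6.52% among the 5063 genes of lowest mean level, 15.1% among the next 5063 and 28.7% among the 5063 of highest level. The median log2 fold change over all genes was 0.005. Fewer genes, 759, were called with library sizes alone in place of TMM factors, 1537 by DESeq2, and 1969 with all libraries thinned to 2708143 counts. With no filter on low counts 59.6% of the calls were higher with DHA, against 42.6% here.

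**Figure D1:**
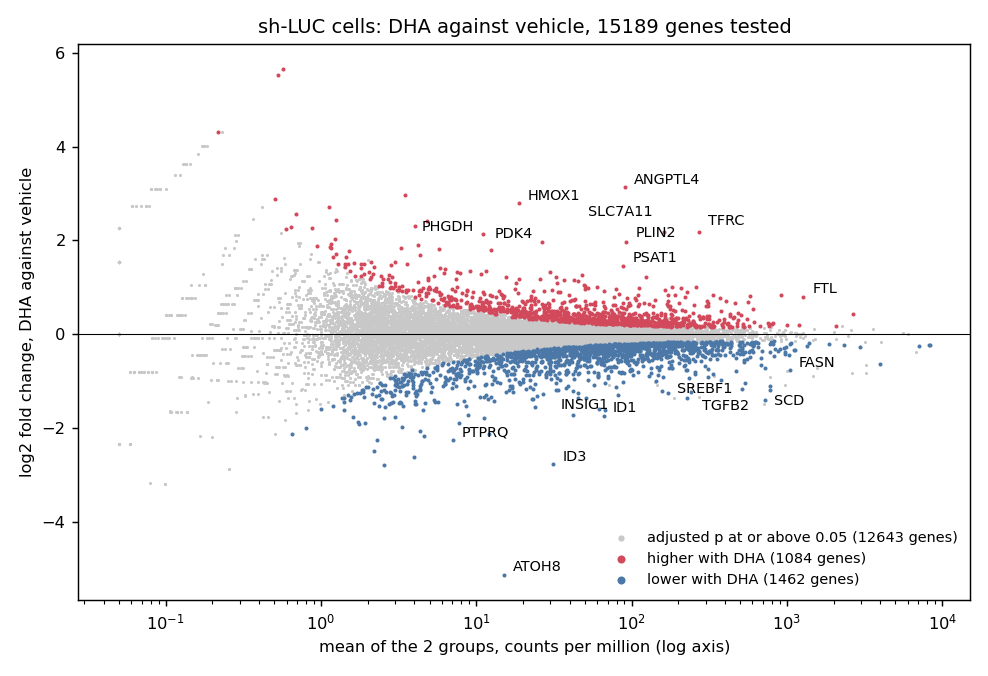
Each point is 1 of the 15189 genes tested, plotted by its mean level over the 6 libraries (CPM, log axis, values under 0.05 drawn at 0.05) and its log2 fold change, DHA over vehicle, in sh-LUC cells. Coloured points are the 1084 genes called higher and the 1462 called lower, and calls are more frequent and smaller toward the right, where counts are high.

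Genes that fatty acids switch on through PPARs were among the largest rises. ANGPTL4, a secreted inhibitor of lipoprotein lipase (ENSG00000167772.12, GRCh38 chromosome 19, positions 8363289 to 8374373 in GENCODE release 29), had 14.4, 21.8 and 18.6 CPM in the control libraries and 165, 158 and 164 CPM in the DHA libraries. All 3 DHA values lay more than 7-fold above all control values, and the change was 8.88-fold in mean CPM (log2 fold change 3.13, SE 0.11, adjusted p = 3.4e-44). PDK4, a kinase that turns pyruvate dehydrogenase off when fat is burned (chromosome 7, positions 95583499 to 95596491), had 10.2, 11.4 and 10.96 CPM with vehicle and 39.3, 45.3 and 42.5 CPM with DHA (log2 fold change 1.97, SE 0.14, adjusted p = 8.8e-25). CPT1A, the gate for long-chain fatty acids into mitochondria (chromosome 11, positions 68754620 to 68844410), had 124, 118 and 119 CPM with vehicle and 255, 223 and 249 CPM with DHA (log2 fold change 1.01, SE 0.065, adjusted p = 9.3e-28). Neither gene's groups overlapped. ACADVL, which begins the oxidation of very long chains, rose from 307 to 499 CPM in mean (log2 fold change 0.71, SE 0.054, adjusted p = 2.4e-22). CREB3L3, a liver-type transcription factor under PPAR alpha, rose from a low level, 0.772 to 6.20 CPM (log2 fold change 2.96, SE 0.41, adjusted p = 2.8e-09), and ACAA2 and SLC25A20, a thiolase and the carnitine carrier, had log2 fold changes of 0.70 and 0.61. Of the whole list of PPAR targets and fatty acid oxidation, 9 of 32 tested members rose, 5 fell and the median was -0.014, so the rises stood beside many members with little change. The members that fell included TXNIP, which restrains glucose uptake, at 225, 273 and 293 CPM with vehicle and 166, 209.7 and 169 CPM with DHA (log2 fold change -0.54, SE 0.074, adjusted p = 2.2e-07), PPARA itself (46.4 to 35.2 CPM, log2 fold change -0.39) and CPT2, the partner of CPT1A on the inner membrane (17.01 to 11.4 CPM, log2 fold change -0.60). The fall of PPARA was lost with thinned libraries (adjusted p = 0.0779), and without control replicate 2 the list held 3 falls.

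Of 20 tested lipid droplet genes 6 rose and 4 fell, with a median of 0.15. PLIN2, which coats droplets and is stabilised by them (chromosome 9, positions 19108375 to 19149290), had 39.4, 38.6 and 35.97 CPM in the control libraries and 152, 139 and 151 CPM in the DHA libraries. The 3 DHA libraries agreed closely and all lay above all controls (log2 fold change 1.96, SE 0.082, adjusted p = 1.2e-43). PLIN4, another coat protein, rose from 3.31 to 6.76 CPM (log2 fold change 0.97, adjusted p = 0.00612), and GPAT3, an acyltransferase that starts triglyceride synthesis, from 22.9 to 50.5 CPM (log2 fold change 1.16, SE 0.11, adjusted p = 4.7e-17). HILPDA, which blocks droplet lipolysis, had 4.22, 5.38 and 4.05 CPM with vehicle and 9.24, 6.91 and 6.65 CPM with DHA (log2 fold change 0.72, SE 0.25, adjusted p = 0.0289), and its call was lost without control replicate 1 (adjusted p = 0.0871) or 3 (0.178) or DHA replicate 1 (0.137). Members that fell included PNPLA2, the first triglyceride lipase (152 to 114 CPM, log2 fold change -0.42), and MGLL, the monoglyceride lipase (157 to 115 CPM, log2 fold change -0.44). LPIN1, a phosphatase of triglyceride synthesis, fell from 123 to 70.99 CPM (log2 fold change -0.79, SE 0.075, adjusted p = 4.7e-16).

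Most genes of sterol synthesis fell. Of 26 tested genes of cholesterol synthesis and uptake 22 fell and 0 rose, where 9.63% of all tested genes fell, and their median log2 fold change was -0.57. Rises were 0 also at an unadjusted p below 0.05 and by DESeq2. INSIG1, which holds SREBPs in the endoplasmic reticulum and is itself their target (chromosome 7, positions 155297776 to 155310235), had 112, 115 and 123 CPM in the control libraries and 46.9, 46.97 and 49.9 CPM in the DHA libraries. The DHA values were tightly grouped and far under the controls (log2 fold change -1.29, SE 0.079, adjusted p = 2.5e-29). HMGCS1, the first committed enzyme toward mevalonate, had 105, 108 and 113 CPM with vehicle and 59.8, 59.1 and 65.3 CPM with DHA (log2 fold change -0.83, SE 0.076, adjusted p = 3.2e-17). The highest DHA value was below the lowest control. The falls ran along the pathway: IDI1, the isomerase, had a log2 fold change of -0.92, SQLE, squalene epoxidase, -0.67, and LSS, lanosterol synthase, -0.66. MYLIP, a ubiquitin ligase counted below with the liver X receptor targets, had a log2 fold change of -1.03. Scaled by library size alone, 11 of the members fell and 0 rose.

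Fatty acid synthesis fell with it, by 11 of 19 tested members, with 1 rise and a median of -0.26. SCD, the desaturase that makes monounsaturated fatty acids (chromosome 10, positions 100347124 to 100364834), had 979, 1066 and 1079 CPM in the control libraries and 388, 398 and 404 CPM in the DHA libraries, a 0.381-fold level with no overlap (log2 fold change -1.39, SE 0.078, adjusted p = 1.2e-14). SREBF1, which encodes the SREBP of fatty acid synthesis, fell from 240.4 to 101 CPM (log2 fold change -1.25, SE 0.066, adjusted p = 2.1e-34), FASN, fatty acid synthase, from 1312 to 771 CPM (log2 fold change -0.77), and ACACA, acetyl-CoA carboxylase, from 282 to 188 CPM (-0.59). FADS2, the desaturase at the entry of polyunsaturated fatty acid synthesis, had 385, 386 and 387 CPM with vehicle and 237, 223 and 236 CPM with DHA. Its control values differed by less than 2 CPM and all DHA values lay below them (log2 fold change -0.74, SE 0.061, adjusted p = 2.1e-17), and FADS1, its partner, had a log2 fold change of -0.31. ME1, malic enzyme, was the member that rose (log2 fold change 0.40, adjusted p = 0.00348); it is also an NRF2 target. The list held 3 falls with library sizes alone. Of 13 liver X receptor targets and efflux genes 3 fell and 0 rose: ABCA1, the cholesterol exporter, had 50.3, 49.01 and 57.9 CPM with vehicle and 20.8, 29.7 and 19.8 CPM with DHA with no overlap (log2 fold change -1.15, SE 0.11, adjusted p = 7.3e-14), and MYLIP and NPC2, a lysosomal sterol carrier, were the others, NPC2 not without control replicate 3 (adjusted p = 0.0666). Rises were 0 there too at an unadjusted p below 0.05 and by DESeq2.

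2 called genes of these lists hold the core of a sterol regulatory element, TCACNCCAC, on either strand within 250 bases before their start. Both were chosen for this match after their values were seen. They are SREBF2, which encodes the SREBP of sterol synthesis and fell from 307 to 232 CPM (log2 fold change -0.40, SE 0.055, adjusted p = 1.8e-09), and MID1IP1, a partner of acetyl-CoA carboxylase, which fell from 55.7 to 47.1 CPM (log2 fold change -0.26, SE 0.092, adjusted p = 0.0337). The 30-base windows are given on each gene's strand, with the match in capitals, from RefSeq on GRCh38.p14 at chr22:41832962-41832991 for SREBF2 and chrX:38801409-38801438 for MID1IP1.
SREBF2: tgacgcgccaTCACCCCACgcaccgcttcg
MID1IP1: aggggcggtgGTGGGGTGAttccaagggcc
The match is a description of the letters. It was present in 0.858% of the 10959 promoters of tested genes in the table, in 1 of the 19 cholesterol genes with an entry and in 1 of the 17 fatty acid synthesis genes with one.

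Most genes of the integrated stress response rose, in a list that spans amino acid synthesis, transfer RNA charging and amino acid import. Of 28 tested members 21 rose and 2 fell, with a median of 0.68, where 7.14% of all tested genes rose. Serine synthesis led: PHGDH, its first enzyme (chromosome 1, positions 119648411 to 119744226), had 3.17, 4.18 and 4.76 CPM in the control libraries and 17.99, 21.8 and 14.4 CPM in the DHA libraries. The control values were low and the DHA values all at least 3-fold above them (log2 fold change 2.13, SE 0.20, adjusted p = 1.0e-16). PSAT1, the second enzyme, had 45.7, 49.9 and 46.7 CPM with vehicle and 128, 140.2 and 121 CPM with DHA (log2 fold change 1.45, SE 0.084, adjusted p = 7.1e-29), and MTHFD2 and SHMT2, which pass the one-carbon unit of serine on in mitochondria, rose from 26.3 to 59.4 CPM and from 123 to 219.8 CPM. TRIB3, a pseudokinase induced by ATF4, had 17.2, 19.1 and 14.8 CPM with vehicle and 41.9, 45.8 and 39.1 CPM with DHA with no overlap (log2 fold change 1.33, SE 0.12, adjusted p = 9.7e-17). ATF4 itself rose from 152 to 218 CPM (log2 fold change 0.52) and SESN2, which restrains mTORC1, from 10.4 to 18.8 CPM (log2 fold change 0.83), a call that thinning ended (adjusted p = 0.0595).

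Some stress genes tied to cell death in the same list did not pass the test. The call of CHAC1 was lost when any 1 of several libraries was left out. DDIT3, the pro-apoptotic factor CHOP, had 5.28, 7.17 and 7.86 CPM in the control libraries and 11.2, 8.98 and 9.36 CPM in the DHA libraries. All DHA values were above the controls, but the change did not pass the test (log2 fold change 0.49, SE 0.21, adjusted p = 0.095). ATF3, a stress-induced repressor, had 1.76, 1.49 and 3.10 CPM with vehicle and 3.80, 3.22 and 3.53 CPM with DHA (log2 fold change 0.65, SE 0.34, adjusted p = 0.195), also without overlap and also not called. CHAC1, which breaks down glutathione and is a common ferroptosis marker, had 7.04, 8.07 and 12.2 CPM with vehicle and 25.1, 23.8 and 17.1 CPM with DHA (log2 fold change 1.22, SE 0.33, adjusted p = 0.0215). Its call was lost without control replicate 1 (adjusted p = 0.0772) or 2 (0.091) or DHA replicate 1 (0.0555) or 2 (0.0628). ATF5, a relative of ATF4, and KLHL24, a ubiquitin ligase adaptor, fell (log2 fold changes -0.49 and -0.39).

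Most charging and import genes rose too. Of 20 cytosolic aminoacyl-tRNA synthetases 14 rose, 0 fell (0 at an unadjusted p below 0.05 and 0 by DESeq2) and the median was 0.38. YARS1, for tyrosine, had 81.6, 69.6 and 84.1 CPM with vehicle and 147, 149 and 129 CPM with DHA, with every DHA value above every control (log2 fold change 0.85, SE 0.072, adjusted p = 2.8e-19), and AARS1, MARS1 and IARS1, for alanine, methionine and isoleucine, had log2 fold changes of 0.79, 0.72 and 0.63. Of 14 amino acid transporters 8 rose and 1 fell, with a median of 0.61. SLC1A5 and SLC38A1, which import glutamine, rose from 233 to 383 CPM and from 239.7 to 381 CPM, and SLC3A2, the chain shared by several exchangers, from 155 to 247 CPM. The fall of SLC7A6 (log2 fold change -0.26) was lost without control replicate 1 (adjusted p = 0.177) or 3 (0.0793) or DHA replicate 2 (0.119). Only 5 synthetases were called higher with library sizes alone.

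The core at which ATF4 and C/EBP proteins bind as a pair, TGATGNAA on either strand, lay within 250 bases before the start of 2 called members, ASNS, asparagine synthetase, and CHAC1. ASNS was chosen for this match after its values were seen and rose from a low level, 1.48 to 5.12 CPM (log2 fold change 1.84, SE 0.37, adjusted p = 5.2e-05). The windows are from RefSeq on GRCh38.p14, on each gene's strand, at chr7:97872458-97872487 for ASNS and chr15:40953251-40953280 for CHAC1.
ASNS: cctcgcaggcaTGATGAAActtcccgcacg
CHAC1: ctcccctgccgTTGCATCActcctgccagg
The same letters were found in 1.54% of the promoters of tested genes and in 3 of the 22 stress response genes with an entry.

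Most NRF2 targets rose. Of 32 tested members 20 rose and 0 fell, with a median of 0.59, and falls were 0 at an unadjusted p below 0.05 and by DESeq2. HMOX1, which breaks down heme (chromosome 22, positions 35380361 to 35394214), had 4.22, 5.68 and 4.29 CPM in the control libraries and 31.4, 30.2 and 36.9 CPM in the DHA libraries. The lowest DHA value was over 5-fold the highest control, though the gene stayed at a modest level (log2 fold change 2.79, SE 0.25, adjusted p = 1.5e-07). SLC7A11, the cystine importer that feeds glutathione synthesis and the target of erastin (chromosome 4, positions 138164097 to 138242349), had 59.1, 52.9 and 63.1 CPM with vehicle and 248, 278 and 266 CPM with DHA (log2 fold change 2.17, SE 0.072, adjusted p = 6.2e-47). GCLM, a subunit of the enzyme that makes the first step of glutathione, had 99.6, 111 and 123 CPM with vehicle and 218, 203 and 227 CPM with DHA (log2 fold change 0.95, SE 0.071, adjusted p = 2.8e-19). NQO1, a quinone reductase, rose from 416 to 740.4 CPM (log2 fold change 0.83), SQSTM1, an autophagy receptor that releases NRF2, from 139.9 to 278 CPM (0.99), GSR, glutathione reductase, from 68.8 to 102 CPM (0.58), and TXNRD1, thioredoxin reductase, from 430.2 to 699 CPM (0.70). TRIM16L (log2 fold change 1.27) has a close copy, TRIM16, so its counts are uncertain. Scaled by library size alone, 13 of the list rose.

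3 called NRF2 targets hold the core of an antioxidant response element, TGACNNNGC on either strand, within 250 bases before their start. TXNRD1 was chosen for this match after its values were seen. The windows come from RefSeq on GRCh38.p14, on each gene's strand, at chr1:93909445-93909474 for GCLM, chr12:104215670-104215699 for TXNRD1 and chr6:83431169-83431198 for ME1.
GCLM: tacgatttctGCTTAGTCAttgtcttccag
TXNRD1: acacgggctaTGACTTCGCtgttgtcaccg
ME1: tctcctgccaTGACTCAGCgcttctcgcag
Of the promoters of tested genes 12.1% held these letters, and of the 23 NRF2 targets with an entry 5. For the NRF2, stress response and cholesterol lists fewer than 80% of the tested members had an entry, so the share of matches was not compared with that of other genes.

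Iron genes moved on both the import and the storage side. TFRC, the transferrin receptor through which cells take up iron (ENSG00000072274.13, chromosome 3, positions 196027183 to 196082189), had 100.3, 90.3 and 104 CPM in the control libraries and 426, 424 and 488 CPM in the DHA libraries. Each DHA library was at least 4-fold above each control library (log2 fold change 2.18, SE 0.064, adjusted p = 1.8e-59). FTH1, the ferritin heavy chain that stores iron, had 180.1, 173 and 165 CPM with vehicle and 383, 342 and 312 CPM with DHA (log2 fold change 1.01, SE 0.15, adjusted p = 3.9e-04), and FTL, the light chain, rose from 931 to 1618 CPM (log2 fold change 0.80); both have many processed copies, so their counts are uncertain. NCOA4, which delivers ferritin for breakdown, fell from 235 to 186 CPM (log2 fold change -0.34), ACO1, the iron-sensing RNA-binding protein, from 239 to 189.9 CPM (-0.33), and SLC40A1, the iron exporter, from 10.7 to 7.09 CPM (-0.63). Of 25 tested iron and heme genes 8 rose and 3 fell, with a median of 0.16.

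**Figure D2:**
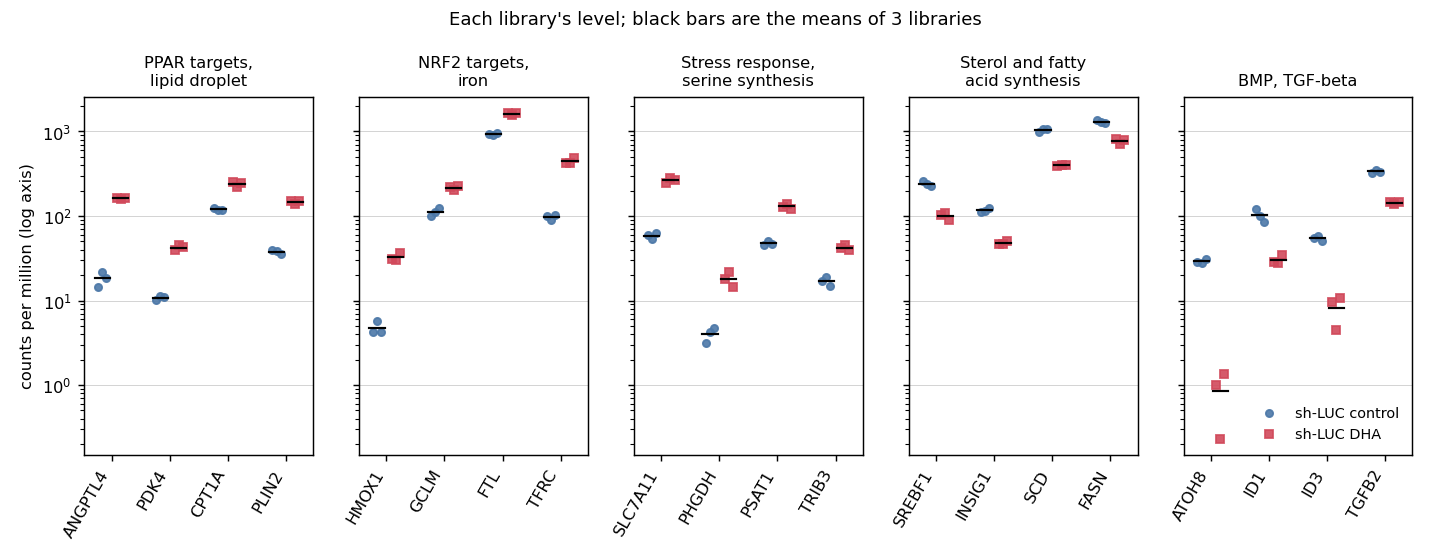
Levels of selected genes in each of the 6 sh-LUC libraries (CPM, log axis), 3 with vehicle and 3 with DHA, each point 1 library and each black bar the mean of 3. The 20 genes are grouped by role, and in each the points of the 2 groups do not overlap.

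Genes linked to ferroptosis did not move one way. Of 22 defence genes 7 rose and 6 fell (median -0.014), and of 23 drivers and reported markers 4 rose and 5 fell (median 0.10). The 2 lists were called at 59.1% and 39.1%, against 16.8% of all tested genes. GPX4, which reduces lipid peroxides and is the central guard against ferroptosis, had 184, 181 and 187 CPM in the control libraries and 133, 122 and 126 CPM in the DHA libraries. All DHA values were below all controls (log2 fold change -0.54, SE 0.065, adjusted p = 1.6e-11), and with library sizes alone the gene was not called (adjusted p = 0.163). AIFM2, which regenerates coenzyme Q independently of GPX4, rose from 32.9 to 44.6 CPM (log2 fold change 0.44), and so did GCH1, which makes the antioxidant tetrahydrobiopterin, from 7.63 to 11.5 CPM (0.55). ACSL4, which loads polyunsaturated fatty acids onto phospholipids, had 153, 174 and 184 CPM with vehicle and 143, 147 and 162 CPM with DHA. The groups overlapped and the call (log2 fold change -0.18, SE 0.065, adjusted p = 0.0415) was lost without control replicate 2 (adjusted p = 0.142) or 3 (0.391) or DHA replicate 1 (0.171) or 2 (0.125). PTGS2, cyclooxygenase 2 and a widely used ferroptosis marker, had 18.7, 17.9 and 20.5 CPM with vehicle and 20.5, 21.5 and 23.2 CPM with DHA and did not pass the test (log2 fold change 0.19, SE 0.13, adjusted p = 0.365). SAT1, which starts polyamine breakdown, fell from 75.7 to 52.2 CPM (log2 fold change -0.56). Without control replicate 2 or DHA replicate 1 the drivers and markers held 2 rises.

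Enzymes of glutathione, thioredoxin and peroxides were mixed. Of 29 tested members 8 rose and 5 fell, with a median of 0.047, and DESeq2 called 5 higher. GPX1, the most common glutathione peroxidase, had 124, 135 and 119 CPM with vehicle and 69.98, 72.2 and 78.7 CPM with DHA, all DHA values below all controls (log2 fold change -0.77, SE 0.074, adjusted p = 2.0e-16), and GSTK1, a glutathione transferase of mitochondria and peroxisomes, fell from 75.9 to 52.3 CPM (log2 fold change -0.54). TXN, thioredoxin, rose from 133 to 177 CPM (log2 fold change 0.41) and CAT, catalase, from 65.9 to 81.9 CPM (0.31).

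Genes that activate fatty acids and remodel phospholipids were mostly not called, yet were called more often than tested genes as a whole. Of 31 members 3 rose and 6 fell, where 7.14% and 9.63% of all tested genes did, and the median was 0.010. ACSL3, which activates monounsaturated fatty acids, had 177, 198 and 199.9 CPM with vehicle and 132, 141 and 150.4 CPM with DHA without overlap (log2 fold change -0.44, SE 0.064, adjusted p = 9.3e-09), PCYT2, of phosphatidylethanolamine synthesis, fell from 63.1 to 44.1 CPM (log2 fold change -0.53) and ACSL5 rose from 84.98 to 104 CPM (0.27). Without control replicate 3 the list held 2 falls and without DHA replicate 1 it held 1 rise. Of 15 eicosanoid enzymes 3 rose and 2 fell, with a median of 0.11: EPHX1, an epoxide hydrolase and NRF2 target, rose from 34.7 to 52.8 CPM (log2 fold change 0.60, SE 0.097, adjusted p = 4.3e-07), and PTGES, which makes prostaglandin E2, fell from 198 to 141 CPM (log2 fold change -0.49, SE 0.065, adjusted p = 4.9e-10).

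Protein-folding stress genes were called at 30% in sh-LUC cells, against 16.8% of all tested genes, and moved both ways. HSPA5, the main chaperone of the endoplasmic reticulum, had 579.8, 648 and 667 CPM in the control libraries and 708, 714 and 729 CPM in the DHA libraries. The groups did not overlap, but the change was small (log2 fold change 0.18, SE 0.057, adjusted p = 0.0151) and its call was lost without control replicate 1 (adjusted p = 0.196) or DHA replicate 3 (0.0558). Of 30 folding and degradation genes 6 rose, 3 fell and the median was 0.019. ERN1, a sensor of unfolded proteins, rose from 21.5 to 32.3 CPM (log2 fold change 0.58) and its target XBP1 from 89.02 to 110.0 CPM (0.29), while HSP90B1, another chaperone, fell from 876 to 758 CPM (-0.21). The falls of the list were not stable: without control replicate 2 there were 0, and without control replicate 3 or DHA replicate 1 there was 1.

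Heat shock genes were called at 15.4%, near the 16.8% of all tested genes. HSPA1A, an inducible chaperone of the cytosol, had 12.7, 12.6 and 13.8 CPM with vehicle and 15.8, 16.8 and 23.5 CPM with DHA (log2 fold change 0.52, SE 0.16, adjusted p = 0.0189), and its neighbour HSPA1B had 60.2, 60.1 and 56.7 CPM with vehicle and 104, 97.7 and 116 CPM with DHA (log2 fold change 0.85, SE 0.13, adjusted p = 1.2e-04). No DHA value reached down to the controls in either gene. The 2 genes are near-identical copies, so the split of reads between them is uncertain, and HSPA1A was not called without any 1 of control replicates 1, 2 and 3 or DHA replicate 3 (adjusted p from 0.0683 to 0.177). Of 26 heat shock and chaperonin genes 3 rose and 1 fell, with a median of 0.094, and without DHA replicate 2 there were 5 rises. The fall, of DNAJA1, was lost without control replicate 2, control replicate 3 or DHA replicate 2 (adjusted p from 0.0965 to 0.101).

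Of 9 metallothionein and zinc transport genes 3 fell and 0 rose, with a median of -0.33. By an unadjusted p below 0.05 1 rose, and by DESeq2 0, and without control replicate 1 or DHA replicate 2 there was 1 rise. MT2A, a zinc and copper store with near-identical relatives, had 411, 417 and 408 CPM with vehicle and 338, 331 and 260.1 CPM with DHA (log2 fold change -0.41, SE 0.097, adjusted p = 0.00705), the lowest value in DHA library 3. Immediate early genes moved both ways: of 28 3 rose and 4 fell (median 0.058), and 5 rose without a sh-IGFBP6 erastin library rich in mitochondrial RNA and 6 with no filter on low counts. KLF4, a differentiation factor, rose from 16.1 to 30.2 CPM (log2 fold change 0.92, SE 0.13, adjusted p = 2.1e-09), JUN rose from 156 to 207 CPM (log2 fold change 0.41) and JUND fell from 271 to 191 CPM (-0.51). Of 18 Kruppel-like and lipid-responsive nuclear factors 2 rose and 6 fell, with a median of -0.055, and NR3C1, the glucocorticoid receptor, fell from 259.9 to 189 CPM (log2 fold change -0.46, SE 0.058, adjusted p = 1.0e-10).

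The largest falls included genes that bone morphogenetic proteins (BMPs) and their SMAD factors switch on. ATOH8, a transcription factor induced by BMP signalling (ENSG00000168874.13, chromosome 2, positions 85751344 to 85788066), had 28.9, 27.8 and 30.97 CPM in the control libraries and 0.990, 0.230 and 1.36 CPM in the DHA libraries. It was nearly absent in all 3 DHA libraries and even in all 3 controls (log2 fold change -5.13, SE 0.25, adjusted p = 3.8e-38), the largest fall of any gene averaging 5 CPM or more. ID3, an inhibitor of differentiation and a direct SMAD target, had 54.5, 57.98 and 50.98 CPM with vehicle and 9.57, 4.49 and 10.6 CPM with DHA (log2 fold change -2.77, SE 0.16, adjusted p = 5.0e-18). ID1, its relative, had 122, 101 and 85.5 CPM with vehicle and 28.9, 27.6 and 34.3 CPM with DHA (log2 fold change -1.74, SE 0.094, adjusted p = 9.2e-30). All DHA values of both lay far below their controls. SMAD6 and SMAD7, feedback inhibitors of the pathway, fell from 140.1 to 80.2 CPM and from 41.4 to 32.8 CPM, and of the ligands and receptors BMP4 fell from 217 to 133 CPM (log2 fold change -0.71), BMPR2 from 245 to 170.1 CPM (-0.53) and TGFB2 from 337 to 144 CPM (-1.23). Of 24 BMP and TGF-beta responsive genes 15 fell and 3 rose, with a median of -0.46. PMEPA1, a SMAD antagonist, and SMURF1, a ubiquitin ligase for SMADs, were among the rises (log2 fold changes 0.26 and 0.28). Under library sizes alone 10 fell and 1 rose.

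Neighbouring growth pathways changed in part. Of 20 YAP and TEAD targets 9 fell and 1 rose (median -0.16), led besides TGFB2 by ANKRD1, an ankyrin repeat protein and common YAP readout, with 662, 704 and 755 CPM with vehicle and 311, 288 and 351 CPM with DHA and no overlap (log2 fold change -1.16, SE 0.062, adjusted p = 8.7e-26). Without control replicate 1, 2 rose. Of 18 genes of the EGF receptor system 6 rose and 4 fell (median 0.14): the ligands EREG, TGFA and AREG had log2 fold changes of 0.77, 0.60 and 1.19, and SPRY1, a feedback inhibitor, -0.48. Without control replicate 2, control replicate 3 or DHA replicate 2 there were 2 falls. Of 10 genes of the insulin-like growth factor system 5 fell and 2 rose (median -0.25), with IGFBP4, a binding protein, from 4800.1 to 3112 CPM (log2 fold change -0.63, SE 0.071, adjusted p = 1.7e-11) and IGF1R, the receptor, from 281 to 228 CPM (log2 fold change -0.30). The rises, of INSR and IGF2R, were each lost without control replicate 2, DHA replicate 1 or DHA replicate 3 (adjusted p from 0.052 to 0.14), IGF2R also without control replicate 3 (0.163) or DHA replicate 2 (0.0594).

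Matrix and mesenchymal genes were mixed. Of 35 tested members 7 rose and 10 fell, with a median of -0.042. CDH11, a mesenchymal cadherin, had 409, 435 and 452 CPM with vehicle and 235, 246 and 239.5 CPM with DHA without overlap (log2 fold change -0.85, SE 0.058, adjusted p = 7.3e-26), and SNAI2, a repressor of epithelial genes, fell from 35.2 to 23.4 CPM (log2 fold change -0.61). ITGA2, an integrin chain for collagen, rose from 238 to 428 CPM (log2 fold change 0.84, SE 0.059, adjusted p = 1.7e-23), and ITGA5, a chain for fibronectin, from 144 to 210.0 CPM (log2 fold change 0.55). VIM, vimentin, rose slightly, from 752 to 885 CPM (0.23). Some epithelial markers fell in the same cells: of 12 luminal markers tested 6 fell and 0 rose, likewise 0 at an unadjusted p below 0.05 and by DESeq2, with a median of -0.48. KRT8, a simple-epithelium keratin, had 839, 834 and 826 CPM with vehicle and 545, 509.9 and 538 CPM with DHA (log2 fold change -0.65, SE 0.052, adjusted p = 5.9e-21), its partners KRT7 and KRT18 had log2 fold changes of -0.60 and -0.54, and MUC1, a membrane mucin, fell from 6.84 to 2.23 CPM. The 14 luminal markers summed to between 2178.9 and 2233.5 CPM with vehicle and between 1457.3 and 1543.7 CPM with DHA, of which the hormone-receptor markers ESR1, PGR and FOXA1 made at most 1.32 CPM each. In bulk RNA fewer cells of a kind and less RNA per cell cannot be told apart. Library sizes alone left 2 luminal markers that fell.

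Some inflammatory and interferon genes fell. Of 31 NF-kB targets and cytokines 10 fell and 1 rose, with a median of -0.26. BCL3, a nuclear NF-kB cofactor, had 61.9, 62.2 and 52.6 CPM in the control libraries and 28.9, 23.3 and 23.9 CPM in the DHA libraries. BIRC3, an inhibitor of apoptosis that NF-kB induces, had 42.6, 47.8 and 48.8 CPM with vehicle and 16.2, 17.4 and 27.8 CPM with DHA. No DHA library reached a control library in either gene (log2 fold changes -1.22 and -1.19, adjusted p = 4.9e-19 and 2.1e-09). ICAM1, an adhesion receptor, fell from 58.95 to 40.5 CPM and LIF, a cytokine of the interleukin 6 family, rose from 99.9 to 129.5 CPM. Without DHA replicate 2, 6 fell, and DESeq2 also called 6 lower. Of 33 interferon-stimulated genes 11 fell and 0 rose (median -0.16), and 0 rose also at an unadjusted p below 0.05 and by DESeq2. STAT2, which carries the interferon signal, fell from 161 to 109.8 CPM and SAMD9L, an antiviral protein, from 63.7 to 39.8 CPM (log2 fold change -0.69, SE 0.092, adjusted p = 6.2e-10). Of 15 genes of HLA class I presentation 5 fell and 0 rose (median -0.18, and 0 rises at an unadjusted p below 0.05 or by DESeq2), B2M, the light chain, by -0.24 on the log2 scale, and HLA genes are close copies of each other. With no filter on low counts 0 of the HLA list were called lower, and with library sizes alone 3 interferon genes were.

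Genes of mitosis were called at 20%, near the 16.8% of all tested genes. MKI67, a marker of cycling cells, had 1015, 988 and 929 CPM in the control libraries and 1014, 927 and 922 CPM in the DHA libraries, and CCNB1, the mitotic cyclin, 166, 175 and 182 CPM with vehicle and 181, 160.1 and 165 CPM with DHA. In both the groups overlapped and neither passed the test (adjusted p = 0.762 and 0.65). CDKN1A, the p21 cell cycle inhibitor, had 76.7, 80.4 and 72.7 CPM with vehicle and 67.2, 67.01 and 76.1 CPM with DHA, also with overlap (log2 fold change -0.12, SE 0.079, adjusted p = 0.319). Of 30 mitosis genes 5 rose and 1 fell (median 0.056), and the rises were fewer by DESeq2 (1), with thinned libraries (2) and without any 1 of control replicates 1 to 3 or DHA replicate 1 (2 or 3). KIF20A, a kinesin of cell division, fell from 165 to 125 CPM (log2 fold change -0.41, SE 0.067, adjusted p = 3.5e-07).

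Some genes of DNA replication had small rises. Of 37 tested 10 rose and 0 fell, with a median of 0.15. DESeq2 called 6 higher and 0 lower, and 1 was lower at an unadjusted p below 0.05. RRM2, which makes deoxynucleotides, had 220.3, 207 and 205 CPM with vehicle and 295, 267 and 304 CPM with DHA, the lowest DHA value above the highest control (log2 fold change 0.46, SE 0.059, adjusted p = 2.4e-10), and PCNA, the sliding clamp, rose from 143 to 174 CPM (log2 fold change 0.29). Of 22 replication-dependent histone genes, which are near-identical copies, 9 rose and 0 fell (median 0.19). The rises were 5 by DESeq2 and 0 with library sizes alone, and the falls 0 by DESeq2 and at an unadjusted p below 0.05. Of 31 growth arrest and p53 targets 3 rose and 6 fell (median 0.023), the rises being 0 with thinned libraries and 1 by DESeq2. TP53INP1, a p53 target of the death response, fell from 39.5 to 22.7 CPM (log2 fold change -0.79, SE 0.12, adjusted p = 1.3e-08) and ZMAT3 and PLK2 had log2 fold changes of -0.65 and -0.55. Of 28 BCL2 family and death receptor genes 4 rose and 6 fell (median -0.004): BMF, a pro-apoptotic member, fell from 25.9 to 15.4 CPM (log2 fold change -0.76), BIRC2 from 139 to 97.6 CPM (-0.52) and BCL2L1 from 279 to 236 CPM (-0.25). The rises of this list were 2 without any 1 of control replicates 1 to 3, and 0 by DESeq2.

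Glycolysis and hypoxia targets rose in part, 15 of 31 against 2 falls, with a median of 0.15. PFKFB4, which makes the activator of phosphofructokinase, had 22.2, 21.2 and 25.7 CPM with vehicle and 44.2, 42.9 and 44.1 CPM with DHA without overlap (log2 fold change 0.91, SE 0.11, adjusted p = 7.6e-11), NDRG1, a hypoxia-induced stress gene, rose from 74.2 to 173 CPM (log2 fold change 1.22), VEGFA, the angiogenic factor, from 359 to 566 CPM (0.66) and PFKFB3 from 77.4 to 119 CPM (0.62). ENO1, enolase, and SLC2A1, the glucose transporter GLUT1, fell (-0.23 and -0.19), SLC2A1 not without control replicate 3 (adjusted p = 0.0871). Library sizes alone left 7 rises in the list.

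Organelle genes were called at shares near or above the 16.8% of all tested genes. The shares were 31.8% for autophagy, 32.1% for lysosome and V-ATPase, 18.2% for cytosolic ribosomal proteins and 16.7% for nuclear-encoded oxidative phosphorylation. Of 22 autophagy genes 3 rose and 4 fell (median -0.031). SQSTM1 had 137, 143 and 140.1 CPM with vehicle and 289, 256 and 288 CPM with DHA, while OPTN, another autophagy receptor, fell from 102 to 68.6 CPM (log2 fold change -0.56). The rises were 1 without control replicate 1, control replicate 2 or DHA replicate 2. Of 28 lysosome and V-ATPase genes 3 rose and 6 fell (median -0.037), 1 and 3 without control replicate 3, and CTSD, cathepsin D, fell from 930.1 to 753 CPM (-0.31). Of 33 cytosolic ribosomal protein genes 5 rose and 1 fell (median 0.040), each by less than 0.21 on the log2 scale, and without control replicate 1 or DHA replicate 3 there were 0 rises and without control replicate 2 or DHA replicate 1 there was 1. Of 36 nuclear-encoded genes of oxidative phosphorylation 4 rose and 2 fell (median -0.013), with 2 rises when any 1 control library or DHA replicate 1 or 2 was left out, 1 fall without control replicate 1 or 3 and 0 falls without DHA replicate 2.

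RNA made in mitochondria was lower in every DHA library but not called. The 13 mitochondrially encoded messenger RNAs took 2.7%, 3.15% and 2.80% of the counts with vehicle and 2.01%, 1.97% and 1.62% with DHA, without overlap. Their median log2 fold change was -0.89, yet edgeR's test called 0 of 13, DESeq2 called 0, and 1 had an unadjusted p below 0.05. The fit holds a sh-IGFBP6 erastin library with 54.4% of its counts on mitochondrial ribosomal RNA. Without that library 6 of the 13 fell, and with the 6 sh-LUC libraries alone 9 fell. Of 9 nuclear-retained and structural RNAs 3 fell and 0 rose, against 2 rises at an unadjusted p below 0.05 and 0 by DESeq2, and NEAT1, the scaffold of paraspeckles, had 639, 639 and 697 CPM with vehicle and 454, 511 and 399 CPM with DHA (log2 fold change -0.53, SE 0.12, adjusted p = 0.00794). Without control replicate 3 the list held 1 fall, without DHA replicate 1 it held 1 rise and without DHA replicate 2 it held 2.

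**Figure D3:**
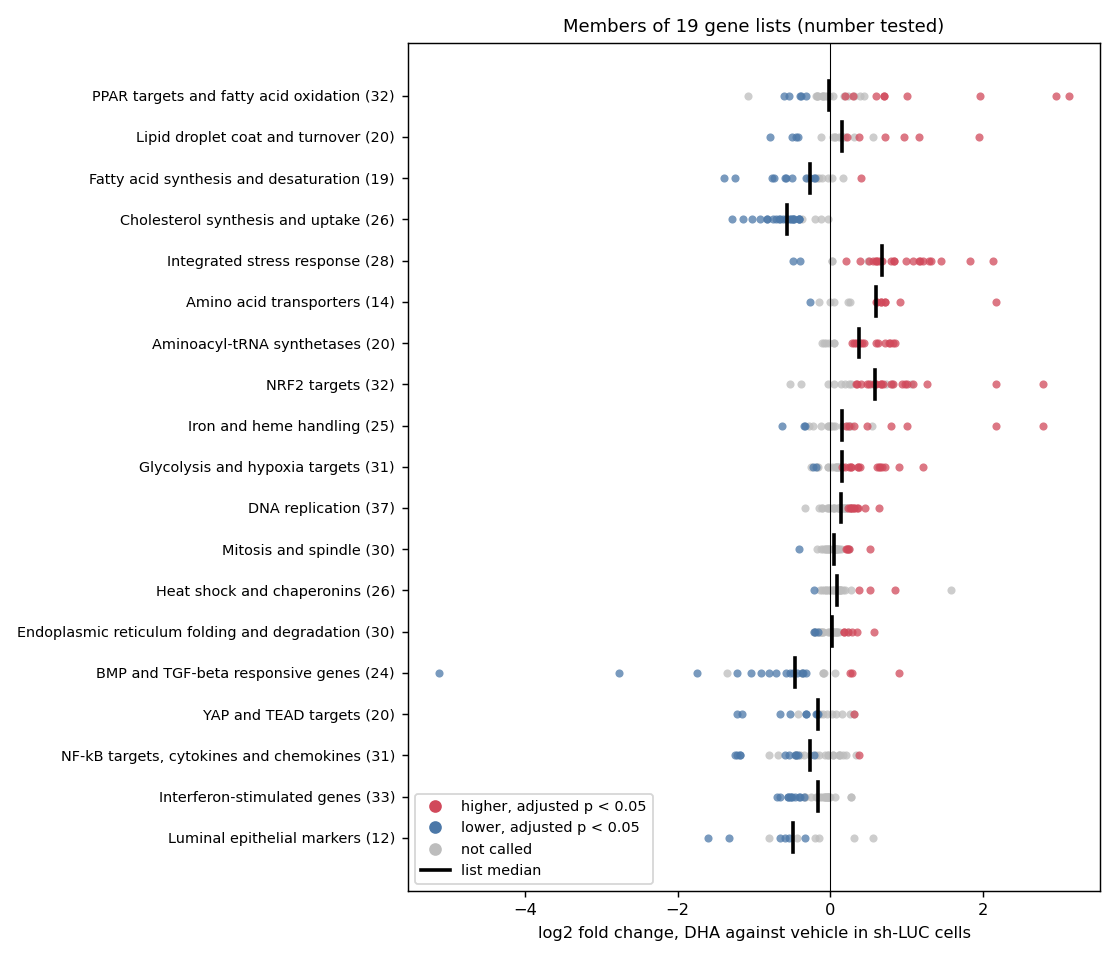
For 19 of the gene lists the log2 fold change, DHA over vehicle in sh-LUC cells, of every tested member (points) and the list median (bar), with called members coloured by direction. Cholesterol synthesis lies below 0, NRF2 targets, the integrated stress response and the tRNA synthetases mostly above it, and the mitosis list close to 0.

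Of the 12 largest rises, taken from genes that averaged 5 CPM or more and whose groups did not overlap, most were the lipid, cystine, iron and serine genes above. The others included LUCAT1, a stress-induced long noncoding RNA, with 7.04, 4.78 and 5.24 CPM with vehicle and 17.00, 24.1 and 16.2 CPM with DHA (log2 fold change 1.79, SE 0.32, adjusted p = 7.9e-04), EID3, a subunit of the SMC5/6 complex, with 4.22, 3.29 and 3.10 CPM with vehicle and 7.92, 10.8 and 8.28 CPM with DHA (log2 fold change 1.40, SE 0.25, adjusted p = 6.4e-06), and the antisense RNAs ARHGEF2-AS2 (log2 fold change 1.83) and AC137932.3 (1.42). Antisense counts may hold reads of the opposite gene, since the sources used here do not give the strand setting. The 12 largest falls reached beyond BMP targets. PTPRQ, a receptor-type phosphatase, had 12.3, 10.5 and 12.4 CPM with vehicle and 1.65, 2.99 and 2.44 CPM with DHA (log2 fold change -2.26, SE 0.24, adjusted p = 5.1e-14). SPTSSB, a subunit of serine palmitoyltransferase, which starts sphingolipid synthesis, had 17.6, 21.2 and 20.01 CPM with vehicle and 4.29, 4.72 and 4.48 CPM with DHA (log2 fold change -2.12, SE 0.19, adjusted p = 3.1e-18). In both every DHA value was more than 3-fold below the lowest control. NNMT, which methylates nicotinamide, fell from 102 to 33.2 CPM (log2 fold change -1.61, SE 0.087, adjusted p = 9.9e-34), LLGL2, a cell polarity gene, from 64.6 to 19.4 CPM (-1.73), COL9A2, a collagen chain, from 17.5 to 5.01 CPM (-1.78), STRA6, the receptor for retinol-binding protein, from 13.6 to 4.15 CPM (-1.73), GABBR2, a GABA receptor subunit, from 12.1 to 3.40 CPM (-1.88), SLCO2A1, a prostaglandin transporter, from 92.4 to 30.8 CPM (-1.59) and F13A1, a clotting factor chain, from 35.7 to 12.2 CPM (-1.56), the last not called by DESeq2 (adjusted p = 0.109). PDGFRB, a growth factor receptor of stromal cells, fell from 35.2 to 13.98 CPM (log2 fold change -1.32, SE 0.13, adjusted p = 5.4e-16), and it alone of 6 tested fibroblast and endothelial markers was called. RNF125, a ubiquitin ligase, had 0 counts in all 3 control libraries and 6, 13 and 7 in the DHA libraries, at least 4.23-fold higher against a floor of 3 counts over the group (adjusted p = 3.9e-04), and CRHR2, a corticotropin-releasing hormone receptor, had 0 and then 5, 11 and 8, at least 3.90-fold higher (adjusted p = 8.9e-04). Among genes with a symbol and at least 10 summed counts in the other group, 35 had no count in the control libraries. In the DHA libraries, which were the deeper, 0 such genes had none, and the part of depth was not tested. Protein-coding genes were called at 18.8%, lincRNAs at 8.29% and antisense RNAs at 7.24%, at median levels of 31.2, 2.37 and 2.59 CPM. The part of level in these shares was not tested.

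The response of sh-LUC cells was set against that of sh-IGFBP6 cells to find where the line matters. It differed between lines in 3126 genes (20.6%), 1543 (10.2%) with the higher value in sh-LUC and 1583 (10.4%) with the lower, by the test of the difference itself. Of the 2546 genes that changed in sh-LUC cells 1079, or 42.4%, had such a difference. The same sh-LUC libraries enter both tests, so this share is not independent of the choice of genes. Of the 3126 genes 1822 were called in sh-IGFBP6 cells and not in sh-LUC, and 497 in sh-LUC and not in sh-IGFBP6. Lipid genes were divided. PDK4, CPT1A, SCD and FADS2 had log2 fold changes of 1.97, 1.01, -1.39 and -0.74 in sh-LUC cells, against 1.95, 0.89, -1.23 and -0.70 in the knockdown line. Their differences of 0.016 (SE 0.37), 0.12 (SE 0.098), -0.16 (SE 0.11) and -0.032 (SE 0.085) did not pass the test. The SE of PDK4 was too wide to show closeness. ANGPTL4, PLIN2, INSIG1 and HMGCS1 had called differences of -1.39, -0.66, -0.90 and -0.59. Of 20 lipid droplet genes 6 had the higher and 5 the lower value in sh-LUC. Of 19 fatty acid synthesis genes 6 had the higher and 1 the lower. With library sizes alone the median of this difference over all genes moved from 0.003 to 0.137 and 73.4% of its calls were higher in sh-LUC, and with no filter on low counts 67.7%.

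Many stress genes had a lower response in sh-LUC cells, though the integrated stress response list was divided. HMOX1 had 4.79, 6.90 and 5.87 CPM with vehicle and 462, 479 and 462 CPM with DHA in sh-IGFBP6 cells, so its response was lower in sh-LUC by -3.49 on the log2 scale (SE 0.46, adjusted p = 1.9e-05). HSPA1A had 8.38, 7.67 and 8.57 CPM and 160.0, 162 and 144 CPM there, a difference of -3.73 (adjusted p = 4.6e-19). HSPA5, PTGS2 and CDKN1A had log2 fold changes of 1.60, 2.73 and 1.73 in sh-IGFBP6 cells, against 0.18, 0.19 and -0.12 in sh-LUC. Of the folding and degradation list 22 of 30 genes had the lower response in sh-LUC and 0 the higher, of the heat shock list 15 of 26 and 0, of the NF-kB list 21 of 31 and 0, and of the NRF2 list 19 of 32 and 1. Members counted as higher in the first 3 of these lists were 0 also at an unadjusted p below 0.05 and by DESeq2. Of the 28 integrated stress response genes 11 had the higher response in sh-LUC and 7 the lower, with a median difference of 0.37. NEAT1 had a response lower by -3.03 in sh-LUC (adjusted p = 1.8e-08). The share of counts on mitochondrial messenger RNAs moved with these groups: 2.07% to 2.68% with vehicle and 2.43% to 3.61% with DHA in sh-IGFBP6 cells, against the fall in sh-LUC given above, and its part in the result was not tested.

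PHGDH, PSAT1, TFRC and most cell cycle genes had higher responses in sh-LUC cells. PHGDH had 34.7, 39.9 and 33.04 CPM with vehicle and 30.2, 30.5 and 27.9 CPM with DHA in sh-IGFBP6 cells, and its response was higher in sh-LUC by 2.42 (SE 0.23, adjusted p = 6.5e-16). PSAT1 differed by 1.72 (adjusted p = 1.4e-25) and TFRC by 1.72 (adjusted p = 5.6e-37), the latter with a log2 fold change of 0.47 in sh-IGFBP6 cells. Of the 25 iron and heme genes 2 had the higher and 4 the lower response in sh-LUC, where 10.2% and 10.4% of all tested genes did. Of the tRNA synthetases 13 of 20 had the higher response in sh-LUC. Of the mitosis list 28 of 30, of DNA replication 31 of 37 and of the histones 22 of 22 did, beside 0, 1 and 0 with the lower. At an unadjusted p below 0.05 the lower counts were 0, 1 and 0, and by DESeq2 0 in each. MKI67 had a log2 fold change of -0.75 in sh-IGFBP6 cells and -0.033 in sh-LUC. CAVIN2, a caveolar coat protein, fell in sh-LUC from 209.7 to 111 CPM and by -3.73 on the log2 scale in sh-IGFBP6 cells. ID1 and ID3, with log2 fold changes of -1.74 and -2.77 in sh-LUC, had -0.11 and 0.13 in sh-IGFBP6 cells, and both differences passed the test (adjusted p = 2.3e-13 and 4.7e-13).

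**Figure D4:**
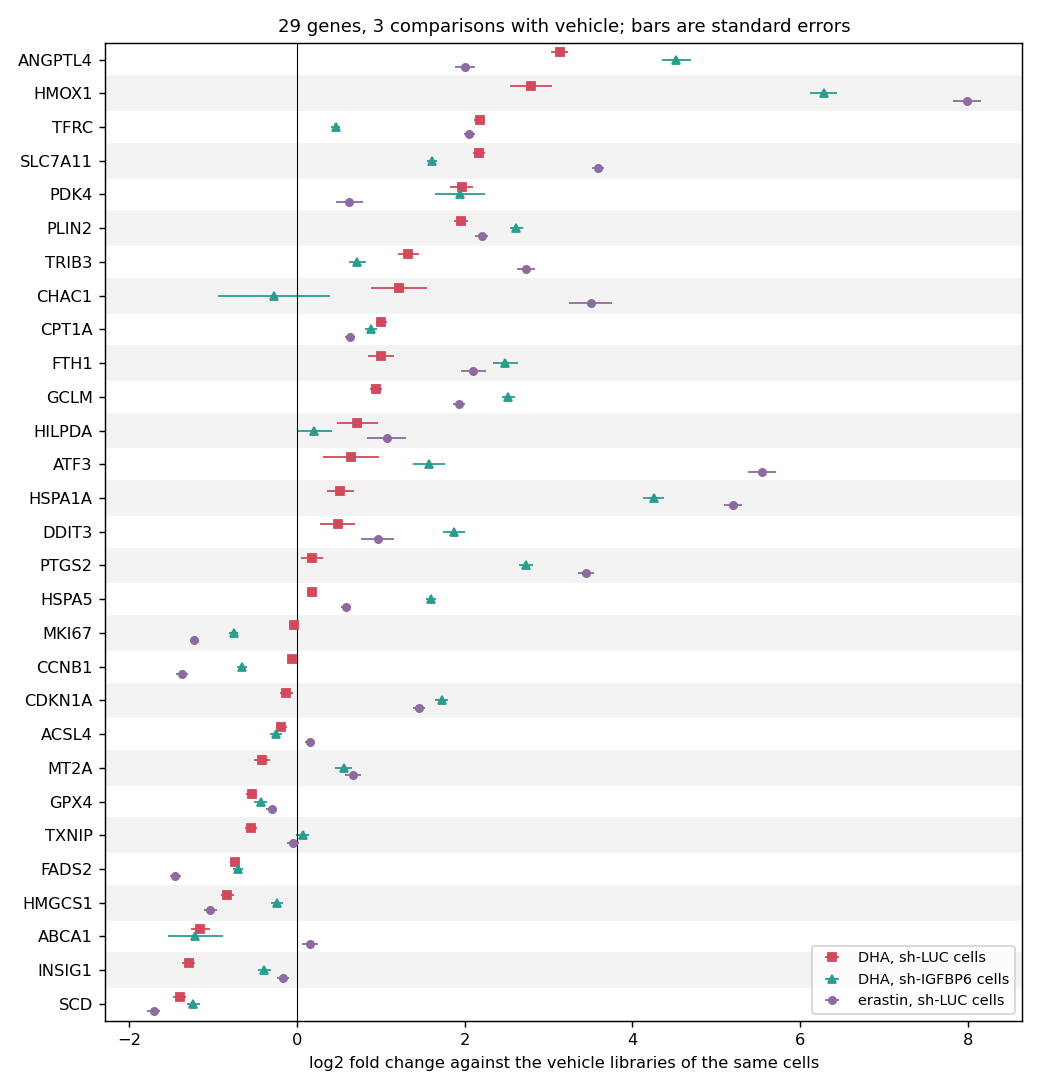
Log2 fold changes of key genes in sh-LUC cells with DHA, in sh-IGFBP6 cells with DHA and in sh-LUC cells with erastin, each against its own vehicle group, with bars of 1 SE. The sh-LUC DHA and erastin values share the 3 control libraries. The points of PDK4 and SCD lie near each other for the 2 lines, though the SE of PDK4 was too wide to show closeness. HMOX1, HSPA1A and PTGS2 are lowest for DHA in sh-LUC cells.

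DHA and erastin were compared directly in sh-LUC cells to see which part of the response a ferroptosis inducer gives too. They differed in 7618 genes (50.2%), 3943 (26.0%) higher with DHA and 3675 (24.2%) lower, and in 1722 (67.6%) of the genes that DHA changed. The DHA libraries enter both tests, so that last share is not independent of the choice of genes. Since both treatments share the 3 control libraries, their fold changes are given side by side only. HMOX1 had 1316, 1279 and 1011 CPM with erastin and HSPA1A 515, 518 and 413 CPM, each above every DHA library, and DHA was lower by -5.20 and -4.68 on the log2 scale (adjusted p = 1.1e-17 and 7.7e-47). PTGS2 had 238, 189 and 203 CPM and ATF3 114, 107 and 92.8 CPM with erastin. Neither passed the test with DHA against vehicle, and DHA was lower by -3.27 and -4.90 (adjusted p = 3.1e-68 and 1.1e-67). Of the integrated stress response 25 of 28 genes were lower with DHA than with erastin and 2 higher, of the heat shock list 25 of 26 lower, and of the NRF2 list 16 of 32 lower and 6 higher.

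Some PPAR genes and most mitosis genes were higher with DHA than with erastin. ANGPTL4 had 75.4, 68.9 and 78.3 CPM with erastin, and DHA was higher by 1.13 (SE 0.070, adjusted p = 4.3e-26). PDK4 had 13.3, 17.5 and 19.3 CPM, and DHA was higher by 1.34 (adjusted p = 5.4e-23). Of the PPAR and fatty acid oxidation list 15 of 32 were higher with DHA and 3 lower. PLIN2, by contrast, had a log2 fold change of 1.96 with DHA and 2.20 with erastin, and TFRC 2.18 and 2.06, with small differences of -0.25 and 0.12 (adjusted p = 2.6e-04 and 0.0453). The TFRC difference was not called without DHA replicate 3 (adjusted p = 0.463), without any 1 erastin library (0.0728 to 0.121), with the 6 libraries alone (0.0638) or by DESeq2 (0.134). Mitosis genes were higher with DHA in 29 of 30, and histones in 21 of 22; MKI67 had 423, 433 and 404 CPM with erastin. SLCO4A1, an organic anion transporter, had 48.9, 52.3 and 48.4 CPM with vehicle and 88.1, 76.9 and 77.1 CPM with DHA and 13.6, 12.6 and 14.4 CPM with erastin, so the compounds moved it in opposite directions (DHA minus erastin 2.57, adjusted p = 1.0e-49).

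INSIG1 was lower with DHA than with erastin, while most genes of the cholesterol list were higher with DHA. The cholesterol list had a median log2 fold change of -0.57 with DHA and -0.99 with erastin, and 17 of 26 members were higher with DHA than with erastin and 2 lower. HMGCS1 had -0.83 and -1.03, a difference of 0.21 (adjusted p = 0.0174) that was not called without DHA replicate 3 (0.11), without erastin replicate 1 (0.0633) or by DESeq2 (0.0825). INSIG1 had 106, 108 and 100.3 CPM with erastin, a log2 fold change of -0.16 against vehicle that did not pass the test, and was lower with DHA by -1.13 (SE 0.073, adjusted p = 1.3e-28). ABCA1 likewise had a log2 fold change of -1.15 with DHA and 0.16 with erastin (difference -1.31, adjusted p = 2.1e-20). The 13 mitochondrially encoded messenger RNAs were all lower with DHA than with erastin, whose libraries gave them 9.31%, 8.64% and 6.15% of their counts. The part of that share in the other differences was not tested. With library sizes alone the median of DHA minus erastin over all genes moved from 0.012 to 0.170, and 73.5% of the calls were higher with DHA, against 51.8% here.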

How the data were processed

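Total RNA was depleted of ribosomal RNA and sequenced, per the labels' protocols. The submitters' processing notes name cutadapt 4.4 for trimming, STAR 2.7.7a with GRCh38 for alignment, and featureCounts for counting. The deposited values are the authors' raw counts per gene, not normalized, per the labels. Annotation release and strand setting were not given in the sources used here. The table held 60709 genes with counts, and 2 lines that named no gene (at most 0.0108% of a library) were left out. Symbols came from a gene name table or GENCODE release 29, which also gave coordinates.

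edgeR 4.0.16 under R 4.3.3 fitted the counts of all 18 libraries together, with TMM factors, a coefficient for each group, robust dispersions and quasi-likelihood F tests. The residual degrees of freedom were 12. filterByExpr (minimum count 10, minimum total 15) kept 15189 genes. P-values were adjusted by Benjamini and Hochberg over all of them, which gives the adjusted p printed throughout, and 0.05 was the threshold for a call. An SE comes from the F statistic (Wald form for F under 1). The common dispersion gave a biological coefficient of variation of 6.29%. The scripts were tested on simulated data. Alternatives were DESeq2 1.42.0, RLE factors, library sizes alone, no filter, thinned libraries, the libraries of a comparison alone, replicate numbers as a block and each library left out. Replicates correlated at r = 0.988 to 0.994 and none were identical.

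The gene lists, the key genes and the comparisons were chosen with earlier results of these data known. Lists are described by counts and medians, with no set test, and share members. Named are the 30 key genes, the 12 largest rises and 12 largest falls averaging 5 CPM or more without overlap, from each list up to 4 members of smallest p and up to 2 that moved against the majority, up to 3 genes at 0 in a group, and up to 4 of the largest differences in each direction in the other comparisons. Not every gene under this rule is described, and some are not reported here. Named outside the rule, after their values were seen, are ACAA2, AIFM2, AREG, ASNS, ATF4, BMP4, BMPR2, CAT, CPT2, CREB3L3, FADS1, GCH1, IDI1, MID1IP1, NDRG1, PLIN4, PNPLA2, SLC25A20, SLC40A1, SMAD6, SMAD7, SMURF1, SQLE, SREBF2, TXN and TXNRD1.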

Additional observations from a re-analysis of the deposited data

Results flagged for a closer look

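The response to DHA in sh-LUC cells minus that in sh-IGFBP6 cells was called in 3126 genes by the test of the difference itself. On the log2 scale it was below 0, with the lower response in sh-LUC cells, in stress genes: -3.73 for HSPA1A, -3.49 for HMOX1, -2.55 for PTGS2, -1.85 for CDKN1A, -1.57 for GCLM, -1.48 for FTH1, -1.42 for HSPA5, -1.39 for DDIT3 and -0.97 for MT2A. It was also below 0 in lipid and sterol genes, at -1.39 for ANGPTL4, -0.66 for PLIN2, -0.90 for INSIG1 and -0.59 for HMGCS1, and at -0.61 for TXNIP. Of these, ANGPTL4 and PLIN2 rose in both lines, with log2 fold changes of 3.13 and 1.96 in sh-LUC cells against 4.52 and 2.61 in sh-IGFBP6 cells, while INSIG1 fell in both (-1.29 and -0.38). The difference was above 0, with the higher value in sh-LUC cells, at 1.72 for TFRC, 0.72 for MKI67, 0.60 for CCNB1, 0.61 for TRIB3 and 0.56 for SLC7A11. For MKI67 and CCNB1 it came from falls in sh-IGFBP6 cells (-0.75 and -0.65) beside uncalled values in sh-LUC. MT2A fell in sh-LUC and rose in sh-IGFBP6 cells (-0.41 and 0.56). The causes were not tested.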

How the results depend on the processing

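Counts of called genes depended most on the scaling and the tool, and the cause was not tested. With library sizes alone DHA against vehicle in sh-LUC cells gave 759 calls (333 higher and 426 lower), the difference between lines 1055 (774 and 281) and DHA against erastin 1457 lower. DESeq2 gave 1537 (565 and 972) for DHA against vehicle, of which 1527 were also edgeR's calls in the same direction, and 1982 (1004 and 978) for the difference between lines. With no filter the lower calls were 852 and 804. Leaving out 1 library of the groups compared gave 1779 to 2291 calls for DHA against vehicle, fewest without control replicate 3, 2641 to 3064 for the difference between lines and 6846 to 7245 for DHA against erastin. Without the sh-IGFBP6 erastin library rich in mitochondrial RNA the calls were 2596, 3172 and 7749. Same-numbered control and DHA libraries did not deviate together (r = 0.022, -0.040 and 0.028), so the numbers are not taken to pair them, and a replicate block gave 2643, 3221 and 7708 calls. The 6 libraries alone gave 2431 calls, and 2992 with the block, an alternative added after the data were seen. Of 4479 values of named genes under an alternative, 4141 kept their side of the threshold (16 of these, uncalled in both, changed sign), 309 were no longer called (127 of them with library sizes alone), 29 became called and 0 called values changed sign. Depth limits genes of low level: the median SE was 0.35 among the 5063 genes of lowest level and 0.074 among the 5063 of highest.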
